A study of Homo sapiens with 6 samples.

Results

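The plasminogen activators PLAT and PLAU, the receptor PLAUR and the serpin SERPINE2 were followed in the human fibrosarcoma line HT1080. The 4 genes were taken by symbol, and all probe sets with that single symbol in the platform annotation were used, which gave 7 of the 22283 probe sets of the array, for 4 of 11963 singly named genes. PLAT and SERPINE2 had 1 probe set each, PLAU had 2 and PLAUR had 3, and all 7 lay above the filter on dim values. Total RNA was measured on 6 single-channel arrays in 3 groups of 2. One group carried the pGUS vector with GFP and an siRNA against MT1-MMP, one carried the same vector with GFP and an siRNA against integrin alpha3, and the mock group carried the vector with GFP alone. All groups thus share the line, the vector and GFP, and the labels name neither a clone nor separate cultures, so a p-value here reflects array-to-array spread alone, part of which may be technical. Each target gene had its lowest mean signal under its own siRNA. On its brightest probe set MMP14, which encodes MT1-MMP, averaged 764 ± 67.2 with MT1-MMP siRNA, 1402 ± 569 with alpha3 siRNA and 2518 ± 773 in mock cells (SD, n = 2 each). ITGA3 averaged 1558 ± 108 with MT1-MMP siRNA, 248 ± 141 with alpha3 siRNA and 1214 ± 107 in mock cells (SD, n = 2 each).

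Plasminogen activation turns the zymogen plasminogen into plasmin, a broad serine protease that degrades fibrin and matrix glycoproteins and activates several pro-metalloproteinases. PLAT encodes tissue-type activator (tPA), PLAU encodes urokinase (uPA), and PLAUR encodes the lipid-anchored receptor that holds uPA at the cell surface and also binds vitronectin. Serpins trap these proteases in covalent complexes, and SERPINE2, or protease nexin-1, is a secreted serpin that inhibits thrombin, uPA and tPA. HT1080 cells are widely used to study uPA and its receptor in invasion.

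The arrays had median signals between 72.9 and 83.1 and a common mean of about 250.1 over the middle 96% of probe sets. Of the 10 mesenchymal markers, 9 lay above the filter, COL3A1 being the exception. Their summed signal was 39774 and 29949 with MT1-MMP siRNA, 23463 and 18783 under alpha3 siRNA, and 19560 and 23552 in mock cells. Above the filter were also 2 of 7 epithelial markers (KRT8 and KRT18, with EPCAM and CDH1 below it), 3 of 7 endothelial, 2 of 6 leukocyte, 1 of 1 erythroid and 1 of 6 smooth muscle markers. Summed signals ran from 2303 to 2735 with MT1-MMP siRNA, 4237 to 4642 with alpha3 siRNA and 3048 to 3289 in mock cells for the epithelial list. For the smooth muscle list they ran from 884 to 1159 with MT1-MMP siRNA, 338 to 586 with alpha3 siRNA and 517 to 686 in mock cells. For the endothelial list they ran from 502 to 722 with MT1-MMP siRNA, 546 to 598 with alpha3 siRNA and 585 to 1324 in mock cells. The leukocyte sums lay between 159 and 259 on all arrays, and the single erythroid marker between 88.5 and 158. The 18 spiked hybridisation controls stood at a median fold of 2.30 and 1.29 over the mock mean with MT1-MMP siRNA, 0.812 and 0.841 under alpha3 siRNA, and 0.927 and 1.07 in mock cells. In a bulk measurement fewer cells of a type and less RNA per cell cannot be told apart. The part of these differences in the results that follow was not tested.

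SERPINE2 showed the clearest difference of the 4 genes. Its signal was 5107 and 3337 with MT1-MMP siRNA, 1573 and 1558 under alpha3 siRNA, and 965 and 900 in mock cells. No array of any group reached into the range of another group, and the lower MT1-MMP siRNA array was 3.46 times the higher mock array. The mean signal was 4222 ± 1251 with MT1-MMP siRNA, 1565 ± 11.2 with alpha3 siRNA and 933 ± 45.9 in mock cells (SD, n = 2 each), so the spread was widest in the group with the highest level.

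The RefSeq table lists 2 start sites for SERPINE2, and the 250 bases before each, on build GRCh38.p14, are shown because SERPINE2 is the gene whose level separated all 3 groups. The window before PLAUR, whose level did not separate them, and the one before the downstream of the 2 start sites of PLAU, which holds 3 GC boxes, are set beside them. PLAT, whose MT1-MMP siRNA arrays also lay above both other groups, was not searched. The windows shown are thus a selection. Capitals mark every match to any of 6 motifs, searched on both strands: the AP-1 site TGANTCA, the CCAAT box, the E-boxes CACATG and CACGTG, the GC box GGGCGG and the TATA box TATAAA. No matches overlapped in these windows. Each sequence is read 5′ to 3′ on the strand of its gene.
SERPINE2 upstream start (chr2:224038641-224038890, minus strand): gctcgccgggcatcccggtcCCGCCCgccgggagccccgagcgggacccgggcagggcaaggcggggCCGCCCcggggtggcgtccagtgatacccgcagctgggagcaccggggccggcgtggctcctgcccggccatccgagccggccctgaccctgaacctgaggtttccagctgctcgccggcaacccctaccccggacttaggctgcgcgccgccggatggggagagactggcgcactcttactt
SERPINE2 downstream start (chr2:224031479-224031728, minus strand): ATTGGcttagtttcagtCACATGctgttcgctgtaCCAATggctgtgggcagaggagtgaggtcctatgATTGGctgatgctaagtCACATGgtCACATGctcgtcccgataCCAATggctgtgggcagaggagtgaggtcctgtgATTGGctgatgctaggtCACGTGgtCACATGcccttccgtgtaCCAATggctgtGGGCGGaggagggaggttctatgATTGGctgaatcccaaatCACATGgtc
PLAU downstream start (chr10:73910882-73911131, plus strand): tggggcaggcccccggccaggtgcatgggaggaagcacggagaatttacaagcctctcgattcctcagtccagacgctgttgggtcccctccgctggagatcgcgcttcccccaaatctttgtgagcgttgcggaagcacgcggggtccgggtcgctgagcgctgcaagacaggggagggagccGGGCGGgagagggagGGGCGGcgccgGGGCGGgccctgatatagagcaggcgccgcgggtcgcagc
PLAUR (chr19:43670170-43670419, minus strand): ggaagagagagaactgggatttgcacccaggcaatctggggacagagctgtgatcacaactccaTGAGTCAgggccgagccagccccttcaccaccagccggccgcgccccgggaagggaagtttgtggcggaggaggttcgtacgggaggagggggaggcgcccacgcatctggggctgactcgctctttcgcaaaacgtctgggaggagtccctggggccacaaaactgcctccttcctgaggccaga
The downstream SERPINE2 window held 7 CCAAT matches in either orientation, 5 CACATG matches and 1 match each to CACGTG and the GC box. Of the 35116 windows of this length in the RefSeq table, 32.01% held at least 1 CCAAT match and 0.0199% held 7 or more. For CACATG the shares were 9.42% for at least 1 match and 0.0114% for 5 or more. The downstream SERPINE2 window repeats a similar stretch of letters in succession, and its CCAAT and CACATG matches recur in the copies. The matches are thus not independent of each other, and the shares take no account of such repeats. The upstream SERPINE2 window held 2 GC boxes, and the downstream PLAU window held 3, a motif present in 42.6% of windows. The other PLAU window held 1 CCAAT match. PLAUR had 1 AP-1 match, whose first base lies at position -186 from the start, and 6.57% of windows held that motif. CACGTG was found in 6.34% and TATAAA in 10.7% of windows. These matches describe the letters only, and the array does not show which start site the cells used.

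**Figure D1:**
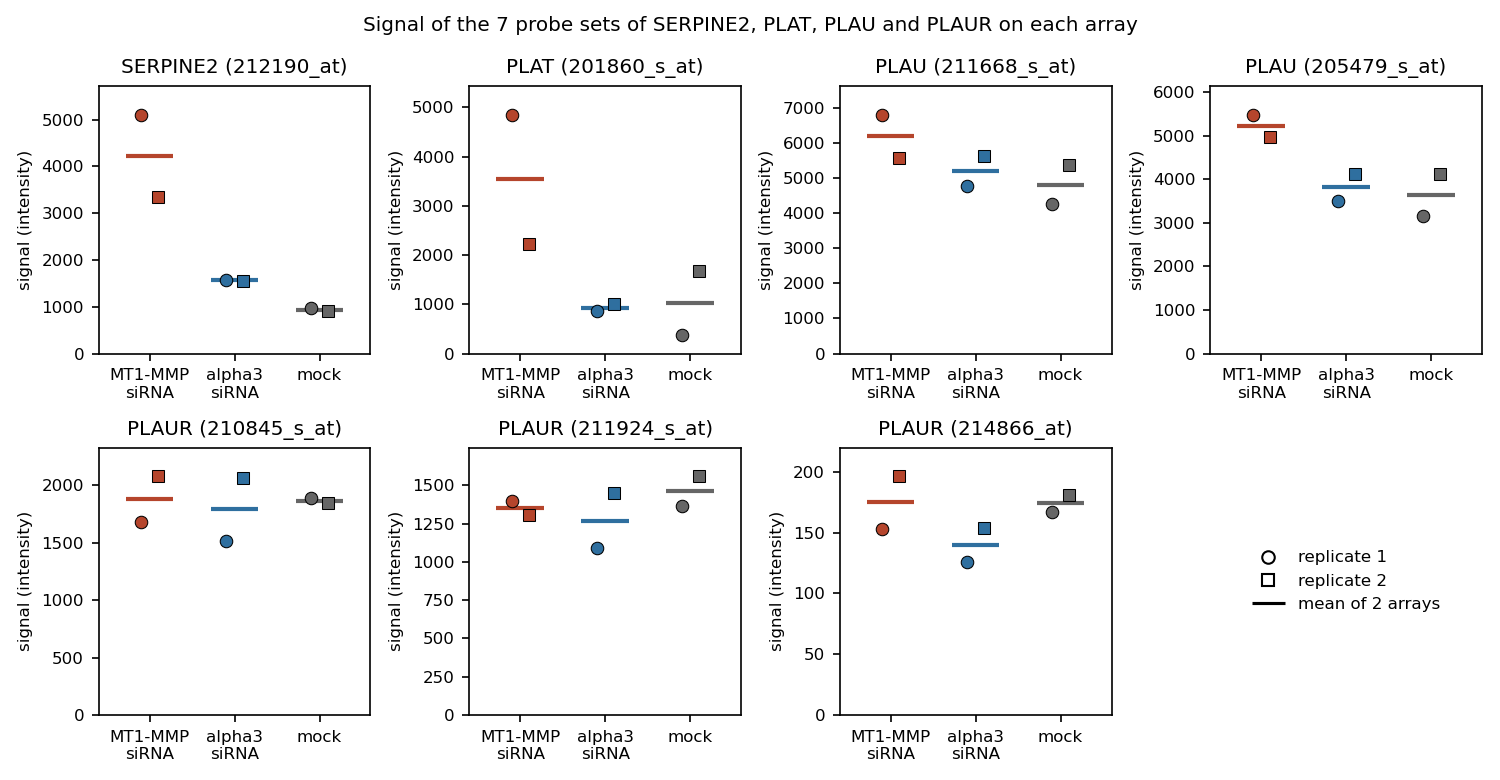
Signal (intensity, linear axis from 0) of the 7 probe sets on each array, with circles for replicate 1, squares for replicate 2 and lines for the mean of 2 arrays. Both SERPINE2 arrays with MT1-MMP siRNA stand at 5107 and 3337 while the mock arrays lie at 965 and 900, and the 2 PLAT mock arrays lie far apart at 378 and 1683.

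The first comparison asked how the genes differed between cells with MT1-MMP siRNA and mock cells. In limma fitted to all genes, 0 of the 4 genes passed an adjusted p of 0.05, as did 0% of the 8045 genes tested, and 2 of the 4 (SERPINE2 and PLAT) had an unadjusted p under 0.05, against 14.4% of all genes. Arrays with MT1-MMP siRNA lay above both mock arrays for 3 of the 4 genes (SERPINE2, PLAT and PLAU), which was so for 24.6% of all genes, and below them for 0 of the 4, against 25.3% of all genes. With every probe set tested on its own, 1 of the 7 passed (SERPINE2, adjusted p = 0.0454), against 0.0169% of 11828 probe sets, and 4 of the 7 lay above both mock arrays, against 24.3%. The log2 fold changes are on the scale of log2(signal + 32), which understates changes of dim genes.

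SERPINE2 had a log2 fold change of 2.11 (SE 0.22, 95% interval 1.61 to 2.61, limma adjusted p = 0.0537) over mock. Its unadjusted p of 8.35e-06 was the lowest of the 8045 genes, and its fold change ranked 8 among the highest. The value did not pass in the fit as designed. It did pass in 10 of 18 alternative settings, among them leaving out MT1-MMP siRNA replicate 2 or either alpha3 siRNA array, with the same direction in all 18, and adjusted p-values ranged from 0.0168 to 0.271.

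PLAT, the tPA gene, had signals of 4853 and 2230 with MT1-MMP siRNA, 866 and 997 under alpha3 siRNA, and 378 and 1683 in mock cells. The groups with MT1-MMP siRNA and mock did not overlap, but the lower MT1-MMP siRNA array was only 1.32 times the higher mock array, and the 2 mock arrays differed from each other by a factor of 4.46. The log2 fold change over mock was 1.99 (SE 0.60, 95% interval 0.62 to 3.36, limma adjusted p = 0.220). Leaving out mock replicate 1 gave 0.95 and leaving out mock replicate 2 gave 3.02, so its size rests on which mock array is used.

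PLAU, the uPA gene, had 6812 and 5586 with MT1-MMP siRNA, 4769 and 5641 under alpha3 siRNA, and 4263 and 5370 in mock cells on its brighter probe set. The second probe set gave 5482 and 4972 with MT1-MMP siRNA, 3511 and 4122 under alpha3 siRNA, and 3150 and 4116 in mock cells. On both probe sets the MT1-MMP siRNA arrays were above the mock arrays, by a factor of 1.04 and 1.21 between the nearest arrays. The log2 fold changes over mock were 0.36 (SE 0.18, 95% interval -0.06 to 0.79, limma adjusted p = 0.402) and, with every probe set tested on its own, 0.53 for the second (95% interval 0.11 to 0.95, limma adjusted p = 0.266). The first was 0.17 after quantile normalization, 0.20 without mock replicate 1 and 0.22 without MT1-MMP siRNA replicate 1.

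PLAUR, the uPA receptor, had 1678 and 2079 with MT1-MMP siRNA, 1519 and 2066 under alpha3 siRNA, and 1891 and 1843 in mock cells on its brightest probe set. Here the mock arrays lay between the arrays of either siRNA group, so no group stood apart. The log2 fold change with MT1-MMP siRNA over mock was 0.00098 (SE 0.21, 95% interval -0.47 to 0.47, limma adjusted p = 0.999). The interval excludes a change of the size seen for SERPINE2 and leaves room for changes of up to about 0.47 on the log2 scale in either direction. The other probe sets, with every probe set tested on its own, gave -0.11 (95% interval -0.57 to 0.35) for the middle one and -0.0033 (95% interval -0.49 to 0.49) for the dimmest. The middle probe set had 1397 and 1306 with MT1-MMP siRNA, 1088 and 1451 under alpha3 siRNA, and 1366 and 1561 in mock cells. The dimmest had 153 and 196 with MT1-MMP siRNA, 126 and 154 under alpha3 siRNA, and 167 and 181 in mock cells. All 3 probe sets thus had overlapping arrays in this comparison.

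**Figure D2:**
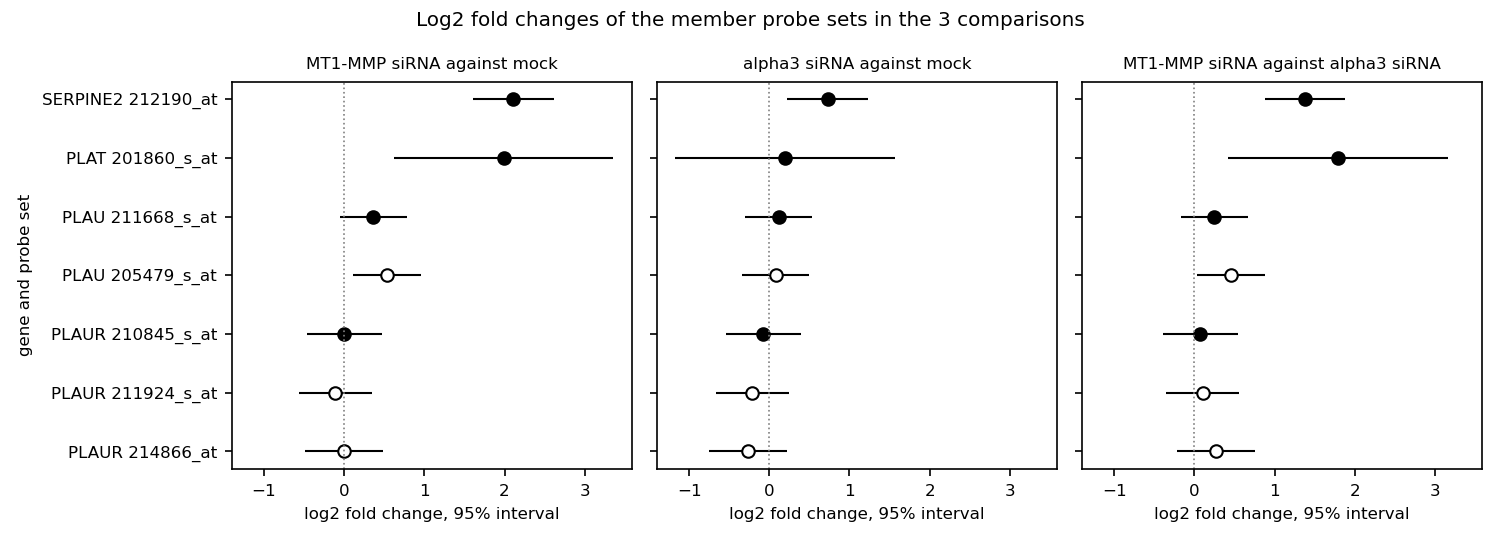
Log2 fold changes (x axis, on log2(signal + 32)) of the 7 probe sets with 95% intervals from limma in the 3 comparisons. Filled points are the brightest probe set of each gene in the fit of 8045 genes, open points the other probe sets in the fit of every probe set. The SERPINE2 intervals lie above 0 in all 3 panels, and every PLAUR interval spans 0.

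The second comparison set cells with alpha3 siRNA against the same mock arrays. In limma, 0 of the 4 genes passed, against 0.0249% of the 8045 genes (2 genes), and 1 of the 4 (SERPINE2) had an unadjusted p under 0.05, against 5.73% of all genes. SERPINE2 was the only one of the 4 genes whose alpha3 siRNA arrays lay above both mock arrays, which was so for 16.4% of all genes, and 0 of the 4 lay below them, against 18% of all genes. With every probe set tested on its own, 0 of the 7 passed, against 0.00845%, and 1 of the 7 lay above both mock arrays, against 16.7%. The log2 fold change of SERPINE2 was 0.73 (SE 0.22, 95% interval 0.23 to 1.23, limma adjusted p = 0.847), and dropping mock replicate 1 gave 0.78, dropping mock replicate 2 gave 0.68. Replicates were tight on both sides, at 1573 and 1558 with alpha3 siRNA against 965 and 900 in mock cells. The log2 fold change was 0.20 for PLAT (95% interval -1.17 to 1.57), and it turned to -0.84 without mock replicate 1. PLAU gave 0.12 (95% interval -0.31 to 0.54), which turned to -0.050 without mock replicate 1 and to -0.0046 without alpha3 siRNA replicate 2. PLAUR gave -0.07 (95% interval -0.54 to 0.40), which turned to 0.14 without alpha3 siRNA replicate 1. Of the PLAUR probe sets, the dimmest alone had both alpha3 siRNA arrays below both mock arrays, at a log2 fold change of -0.27 (95% interval -0.76 to 0.22, limma adjusted p = 0.923). Because both comparisons use the same mock arrays, their values are not independent.

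The third comparison, between the siRNAs, does not use the mock arrays to set the fold change. Of the 4 genes, 1 passed in limma, against 1.39% of the 8045 genes (112 genes). SERPINE2 was higher with MT1-MMP siRNA than with alpha3 siRNA, with a log2 fold change of 1.38 (SE 0.22, 95% interval 0.88 to 1.88, limma adjusted p = 0.0312), and the nearest arrays differed by a factor of 2.12. The call was kept in 12 of 18 alternatives and lost without a filter (adjusted p = 0.0630) and on leaving out any array other than mock replicate 2, with adjusted p-values between 0.0514 and 0.175 and log2 fold changes from 1.08 to 1.69. PLAT had 1.79 (SE 0.60, 95% interval 0.42 to 3.16, limma adjusted p = 0.130), and its MT1-MMP siRNA arrays were at least 2.24 times its alpha3 siRNA arrays. The MT1-MMP siRNA arrays lay above both alpha3 siRNA arrays for these 2 of the 4 genes, as they did for 28% of all genes, and below them for 0 of the 4, against 25.9%. Both genes also had an unadjusted p under 0.05, against 23.4% of all genes. With every probe set tested on its own, 1 of the 7 passed, against 1.37%, and 3 of the 7 lay above both alpha3 siRNA arrays, against 27.5%, the second PLAU probe set being the third of them (log2 fold change 0.45, 95% interval 0.03 to 0.87, limma adjusted p = 0.195). On its brighter probe set PLAU had 0.25 (95% interval -0.17 to 0.67). The value was 0.07 after quantile normalization, 0.12 after cyclic loess, 0.11 without MT1-MMP siRNA replicate 1, 0.13 without alpha3 siRNA replicate 1 and 0.39 without MT1-MMP siRNA replicate 2. PLAUR had 0.07 (95% interval -0.40 to 0.54), and turned to -0.08 without MT1-MMP siRNA replicate 2 and -0.14 without alpha3 siRNA replicate 1. With 2 arrays a group, an exact permutation test of a single gene cannot give a two-sided p below 0.333, so none is reported.

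**Figure D3:**
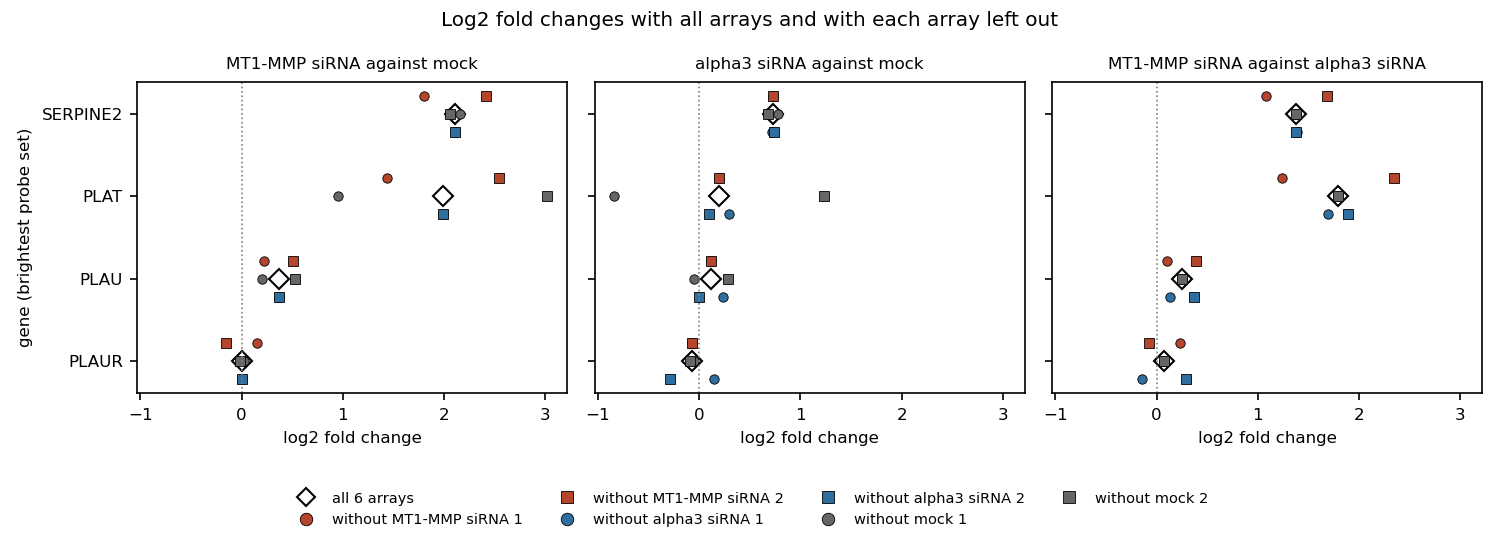
Log2 fold changes (x axis) of the brightest probe set of each gene with all 6 arrays (diamonds) and with each array left out in turn (circles for replicate 1, squares for replicate 2, coloured by group). The SERPINE2 points stay between 1.81 and 2.41 for MT1-MMP siRNA against mock, while the PLAT points spread from 0.95 to 3.02.

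Set in order within each gene, SERPINE2 ran from MT1-MMP siRNA over alpha3 siRNA to mock. Of its 3 pairs of groups, MT1-MMP siRNA against alpha3 siRNA passed the test and the other 2 did not. MT1-MMP siRNA against mock nevertheless had the larger log2 fold change, 2.11 against 1.38. Its unadjusted limma p was also lower, 8.35e-06 against 0.000193. PLAT was highest with MT1-MMP siRNA, and its alpha3 siRNA arrays lay between the mock arrays. PLAU had the same order of means as SERPINE2, but alpha3 siRNA and mock overlapped on both probe sets. On all 3 probe sets of PLAUR the mean was lowest with alpha3 siRNA, with no difference that passed, and the order of MT1-MMP siRNA and mock varied between probe sets. The highest array of SERPINE2, PLAT and both PLAU probe sets was replicate 1 with MT1-MMP siRNA, the array on which the hybridisation controls were also brightest (2.30), whereas PLAUR on its brightest probe set was highest on replicate 2 of that group.

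Among the 1990 other genes that varied by at least 1 on the log2 scale over the 6 arrays, the pattern of SERPINE2 was most like that of PLK2, a polo-like kinase (Pearson r = 0.984 over 6 arrays), FAM3C (0.972) and IFIT2 (0.963), and 31 of them had r above 0.9. PLK2 had signals of 1336 and 1074 with MT1-MMP siRNA, 848 and 783 under alpha3 siRNA, and 566 and 612 in mock cells. Nearest to PLAT were CPE, carboxypeptidase E (0.984), FBN1, fibrillin (0.971) and ENDOD1 (0.967). CPE repeated the split of the mock arrays, with 337 and 199 with MT1-MMP siRNA, 59.1 and 86.8 under alpha3 siRNA, and 37.5 and 163 in mock cells. Nearest to PLAU were RAB11B (0.979), AP1G2 (0.972) and HSD11B1 (0.967), and nearest to PLAUR were NAA50 (0.991), YBX2 (0.937) and DECR2 (0.932), although PLAU and PLAUR themselves ranged over only 0.67 and 0.44 on the log2 scale. These correlations rest on 6 arrays that share a scaling, and are given as descriptions.

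The rest of the plasminogen system was read from a list of 28 genes, of which 18 were tested. Of the other 10, 5 were not analysed here, and PLG, KLKB1, CPB2, SERPINA5 and A2M lay below the filter. With MT1-MMP siRNA against mock, 0 of the 18 passed in limma, against 0% of all genes, and 7 had an unadjusted p under 0.05, against 14.4%. In this comparison 15 of the 18 were above 0, against 50.3% of all genes, and 18 of 23 were without a filter. LRP1, counted among the 15, passed the filter through its MT1-MMP siRNA arrays. The median log2 fold change was 0.38 beside 0.0024 over all genes. It was 0.30 without MT1-MMP siRNA replicate 1, 0.52 without MT1-MMP siRNA replicate 2 and 0.35 over 23 genes without a filter. Genes of the cascade and the inhibitors went both ways, with HPN (0.53) and SERPINI1 (1.89) above 0 and F12 (-0.66) and SERPINF2 (-0.10) below. Of the plasminogen-binding, clearing and partner genes, only PLGRKT (-0.13) was below 0. These genes are named here after their values were seen. Arrays did not overlap upward for 12 of the 18 (LRP1 among them), against 24.6% of all genes, and downward for 1 (F12), against 25.3%. With alpha3 siRNA against mock, 0 passed, against 0.0249% of all genes, and 8 of 18 were above 0, against 48.0%. Arrays did not overlap upward for 4 of the 18, against 16.4% of all genes, and downward for 5, against 18%. The median of -0.07 turned to 0.0008 over 23 genes without a filter and to 0.012 after quantile normalization, so it has no settled direction. Between the siRNAs, 1 gene passed, against 1.39% of all genes, and 14 were above 0 (LRP1 among them), against 51.9%. Without a filter 17 of 23 were above 0. The median was 0.44 (0.25 after quantile normalization).

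The gene that passed was SERPINI1, or neuroserpin, a secreted serpin that inhibits tPA and is known mainly from neurons. Its signal was 298 and 286 with MT1-MMP siRNA, 52.7 and 36.0 under alpha3 siRNA, and 39.5 and 74.7 in mock cells. Both MT1-MMP siRNA arrays were thus at least 3.83 times any mock array, while alpha3 siRNA and mock overlapped. The log2 fold change between the siRNAs was 2.09 (SE 0.26, limma adjusted p = 0.0232), and it lost its call without either MT1-MMP siRNA array or without alpha3 siRNA replicate 2 (adjusted p from 0.0669 to 0.147), at log2 fold changes of 1.94 to 2.12. With alpha3 siRNA signals around the filter signal of 47.5, the offset moved it to 2.72 at 1 and 1.44 at 100, and both passed. Against mock it was 1.89 (SE 0.26, limma adjusted p = 0.0537) for MT1-MMP siRNA and -0.20 (limma adjusted p = 0.935) for alpha3 siRNA. SERPINE2 and SERPINI1 were both among the genes with that adjusted p of 0.0537 for MT1-MMP siRNA against mock.

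Other genes of the list are named by size among those whose arrays did not overlap, and none passed. FPR1, the formyl peptide receptor that associates with the uPA receptor, had 328 and 178 with MT1-MMP siRNA against 132 and 83.1 in mock cells (log2 fold change 1.00, limma adjusted p = 0.290). ITGB5, the integrin subunit that forms a vitronectin receptor with alphaV, had 3025 and 2216 against 1053 and 1667 in mock cells (0.95, limma adjusted p = 0.244). MRC2, an endocytic collagen receptor that associates with uPA and its receptor, had 1211 and 584 with MT1-MMP siRNA, 293 and 328 under alpha3 siRNA, and 354 and 564 in mock cells (0.87 and -0.49). With alpha3 siRNA, LRP1, the endocytic receptor that clears serpin and protease complexes, had 28 and 18.4 against 39.6 and 74.4 in mock cells (-0.67, limma adjusted p = 0.855), with 115 and 82.1 under MT1-MMP siRNA. Both alpha3 siRNA signals and the mock signal of 39.6 lay under the filter signal of 47.5. The alpha3 siRNA and mock arrays of LRP1 averaged below the filter, which it passed through its MT1-MMP siRNA arrays. ITGA5 had 877 and 703 with alpha3 siRNA against 1014 and 1400 in mock cells (-0.58), and F12, coagulation factor XII, had 112 and 69.0 against 129 and 160 (-0.54). The genes named for alpha3 siRNA against mock were all lower because they were taken by size. S100A10, LRPAP1, ITGAV and ITGB3 had alpha3 siRNA arrays above both mock arrays, at smaller fold changes.

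**Figure D4:**
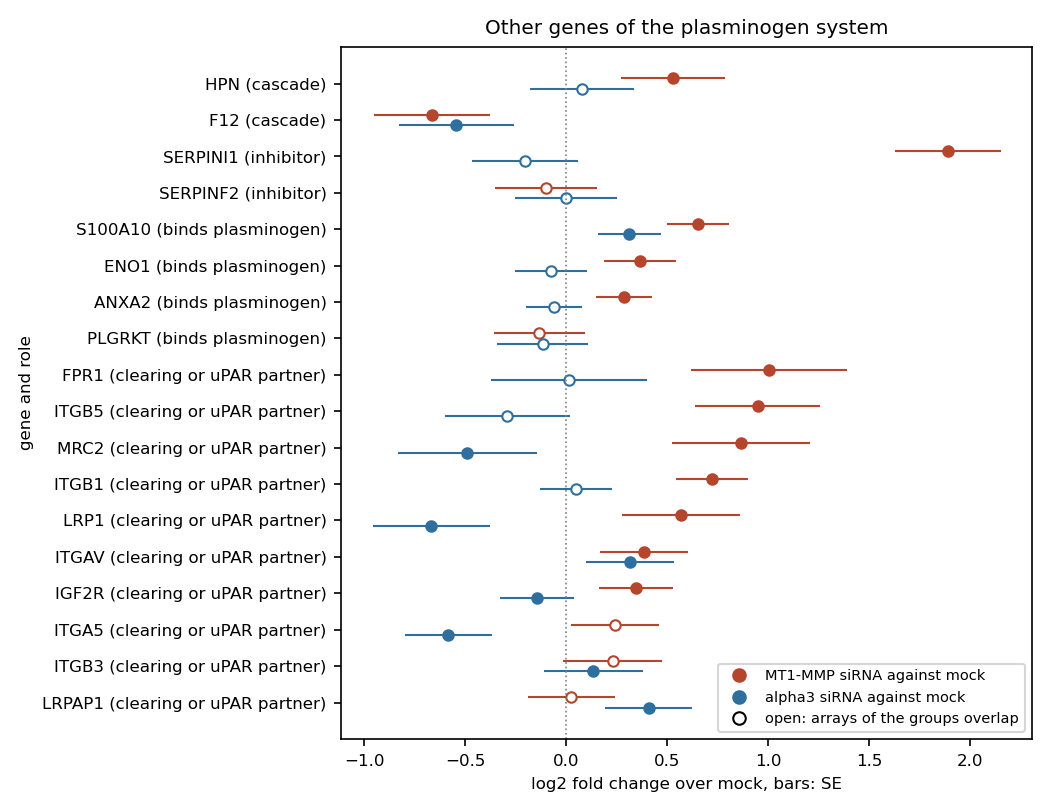
Log2 fold changes over mock (x axis, bars show the SE) of the 18 tested genes of the plasminogen system list, by role, with MT1-MMP siRNA in red and alpha3 siRNA in blue. Filled points mark genes whose arrays did not overlap between the groups, and SERPINI1 stands farthest from 0 at 1.89 with MT1-MMP siRNA.

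Of 21 remaining serpins on the array, 8 were tested and 0 passed in any comparison. Of all genes, 0% passed for MT1-MMP siRNA over mock, 0.0249% for alpha3 siRNA over mock and 1.39% between the siRNAs. In each comparison 1 of the 8 had an unadjusted p under 0.05, against 14.4% of all genes for MT1-MMP siRNA over mock, 5.73% for alpha3 siRNA over mock and 23.4% between the siRNAs. With MT1-MMP siRNA against mock 2 of the 8 were above 0, against 50.3% of all genes. The median of -0.13 was -0.30 without mock replicate 1, -0.0013 without mock replicate 2, -0.22 without MT1-MMP siRNA replicate 1, -0.011 without MT1-MMP siRNA replicate 2 and -0.042 over all 21 without a filter. For alpha3 siRNA 4 were above 0, against 48.0% of all genes (median -0.02, 0.0097 without alpha3 siRNA replicate 2, and 0.15 over all 21 without a filter). Between the siRNAs 2 were, against 51.9% (median -0.34, and -0.13 over all 21 without a filter, and -0.10 without MT1-MMP siRNA replicate 1). SERPINB8 had 236 and 252 with MT1-MMP siRNA against 339 and 402 in mock cells (log2 fold change -0.54, limma adjusted p = 0.268). SERPINB5, or maspin, had 277 and 346 against 414 and 401 in mock cells (-0.36). SERPINB7 had 243 and 233 with MT1-MMP siRNA, 637 and 378 under alpha3 siRNA, and 241 and 322 in mock cells, and its log2 fold changes were -0.96 between the siRNAs (limma adjusted p = 0.0916) and 0.75 for alpha3 siRNA over mock. SERPINB1 (0.76), SERPINB3 (-0.42), SERPINA4 (-0.39) and SERPINB8 (-0.33) also had arrays that did not overlap with alpha3 siRNA against mock. In that comparison arrays did not overlap upward for 2 of the 8, against 16.4% of all genes, and downward for 3, against 18%. SERPINB1 had 111.5 and 110.7 with alpha3 siRNA against 19.6 and 106.1 in mock cells, so the higher mock array lay close to both. Between the siRNAs SERPINB1, SERPINB3 and SERPINA4 had log2 fold changes of -0.63, 0.38 and 0.39.

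SERPINE2 also inhibits thrombin, and 5 of 14 genes of thrombin and tissue factor signalling were tested, F2RL1 not being analysed here and the other 8 lying below the filter. In each comparison 0 of the 5 passed in limma and 3 were above 0. Of all genes, 0% passed for MT1-MMP siRNA over mock, 0.0249% for alpha3 siRNA over mock and 1.39% between the siRNAs. The shares of all genes above 0 were 50.3%, 48.0% and 51.9% in the same order. An unadjusted p under 0.05 was found for 1 of them with MT1-MMP siRNA against mock, against 14.4% of all genes, for 0 with alpha3 siRNA against mock, against 5.73%, and for 3 between the siRNAs, against 23.4%. The median of 5 genes is the value of 1 of them. With all arrays that gene was THBD in each comparison, which passed the filter through its MT1-MMP siRNA arrays. The median was 0.52 with MT1-MMP siRNA against mock, but 0.13 without MT1-MMP siRNA replicate 1 and 0.85 without MT1-MMP siRNA replicate 2. Over 13 genes without a filter the median was 0.018. With alpha3 siRNA against mock it was 0.20, but -0.038 without alpha3 siRNA replicate 1, 0.37 without alpha3 siRNA replicate 2, 0.099 without mock replicate 1, 0.31 without mock replicate 2 and 0.0085 without a filter. Between the siRNAs it was 0.31, but -0.022 without MT1-MMP siRNA replicate 1, 0.65 without MT1-MMP siRNA replicate 2, 0.20 without alpha3 siRNA replicate 2 and 0.032 without a filter. F2R, the thrombin receptor, had 179 and 111 with MT1-MMP siRNA, 78.3 and 23.9 under alpha3 siRNA, and 45.5 and 62.0 in mock cells. Its log2 fold changes were 1.03 for MT1-MMP siRNA over mock (limma adjusted p = 0.265) and 1.15 over alpha3 siRNA (limma adjusted p = 0.113). THBD, or thrombomodulin, had 98.8 and 50.2 with MT1-MMP siRNA against 35.3 and 45.9 in mock cells (0.52). Both THBD mock signals lay under the filter signal of 47.5. Its alpha3 siRNA and mock arrays averaged below the filter, which it passed through its MT1-MMP siRNA arrays. F3, or tissue factor, had 194 and 17.0 with MT1-MMP siRNA, 215 and 445 under alpha3 siRNA, and 62.6 and 177 in mock cells, and its log2 fold changes were -1.71 between the siRNAs and 1.29 for alpha3 siRNA over mock. PROS1, the anticoagulant protein S, had 276 and 91.6 with MT1-MMP siRNA, 64.5 and 28.4 under alpha3 siRNA, and 66.4 and 111 in mock cells (1.35 between the siRNAs and -0.63 for alpha3 siRNA over mock).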

How the data were processed

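Expression was measured on 6 oligonucleotide arrays of HT1080 cells. The authors deposited 1 intensity for each probe set, on a linear scale and already scaled to a common mean. How probe sets were summarised is not given in the sources used here, and the number of arrays limits the precision. Of 22283 probe sets, 19065 had a single gene symbol in the platform annotation. A floor of 1 was applied before taking log2(value + 32). Probe sets had to average more than the 40th percentile of all probe sets, a log2 value of 6.31, and the brightest of each gene was tested, which left 8045 genes from 11828 probe sets. limma 3.58.1 in R 4.3.3 was fitted with lmFit to the 3 groups together and moderated by eBayes, the prior following intensity (residual degrees of freedom 3, prior 5.35), and p-values were adjusted over all genes by Benjamini-Hochberg, with calls under 0.05. Other probe sets come from the same fit of all 11828. SEs and intervals of fold changes are limma's. SDs are over the 2 arrays of a group.

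The 4 genes, the gene lists and the tests were chosen with earlier results of these data known. List genes were named if called, and otherwise up to 4 a list and comparison by size of fold change among those whose arrays did not overlap. The 3 most correlated genes of each member were taken among genes varying by at least 1. Of same-numbered arrays, deviations correlated at 0.13 between the siRNA groups and at -0.18 between each of them and mock, so the numbers were not taken to pair the arrays. Alternatives were 3 normalizations (quantile, a common 75th percentile, cyclic loess), offsets of 1 and 100, no filter or the 60th percentile, averaging the probe sets of each gene, testing every probe set, no trend, only the groups compared, a replicate block, and each array left out. Promoter windows and gene records are RefSeq's. Python 3.11.15 and matplotlib 3.10.9 served for lists and figures.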

Additional observations from a re-analysis of the deposited data

How the results depend on the processing

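Over 18 alternatives SERPINE2 kept its direction in all comparisons, but many of these settings cannot change its fold change. With 1 probe set, it has the same value under other filters, probe set averaging, every probe set, no trend, only the groups compared and the replicate block. Leaving out an array of the group not compared also keeps the value. For MT1-MMP siRNA against mock SERPINE2 passed with quantile normalization (2.05) and offsets of 1 (2.15) and 100 (2.04). At 2.11 it also passed with the mean of probe sets, every probe set, only the 2 groups compared and the replicate block (limma adjusted p = 0.0168). Leaving out 1 array gave 1.81 to 2.41. Between the siRNAs it lost its call at 1.38 without a filter, where more genes were tested, and leaving out 1 array gave 1.08 to 1.69. PLAUR for MT1-MMP siRNA against mock turned to -0.0052 with quantile normalization and -0.037 with the mean of probe sets.

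Leaving out 1 array also turned PLAT (-0.84 to 1.23), PLAU (-0.050 to 0.28), PLAUR (-0.29 to 0.14) and SERPINI1 (-0.49 to 0.086) for alpha3 siRNA against mock, and PLAUR for MT1-MMP siRNA against mock (-0.15 to 0.15) and between the siRNAs (-0.14 to 0.29). The cause was not tested.

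Genes called for MT1-MMP siRNA against mock numbered 0, and 1 with quantile normalization, 3 and 6 with offsets of 1 and 100, 2 with the mean of probe sets, 7 with only the 2 groups, 11 with the replicate block, 2 with every probe set and 0 to 8 without 1 array. For alpha3 siRNA against mock they numbered 2, and 1 with quantile normalization, cyclic loess, an offset of 100, no filter, only the 2 groups or every probe set, 0 with an offset of 1 or the 60th percentile filter, 4 with the replicate block and 0 to 9 without 1 array. Between the siRNAs they numbered 112, and 69 with an offset of 1, 22 without a filter, 178 with the 60th percentile filter, 72 without the trend and 0 to 83 without 1 array. The replicate block changed no other call of the 4 genes. At the 60th percentile filter SERPINI1 has no value. All 7 probe sets lay above the filter signal of 47.5 on every array, the dimmest PLAUR probe set at 126 to 196. Dimness thus limits the list genes near the filter signal more than the members.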
